A study of Mus musculus with 576 samples.

Results

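Haematopoietic stem cells (HSCs) taken from mouse marrow after lipopolysaccharide (LPS) differed widely in how much interferon-stimulated RNA each cell held, and the cells at both ends of that range are compared here. Each library was 1 cell. From 288 cells of LPS marrow 275 were kept, which had 50000 or more gene reads and 1000 or more genes. The cells were chosen by a score, the summed level of the interferon-stimulated genes Rsad2, Ifit1, Cmpk2 and Usp18 in a cell. Levels are counts scaled to a total of 1000000 gene reads (CPM). Within each p27 class the cells were ranked by this score and divided into 3 parts. The highest part is called strong responders (31, 30 and 30 cells of the p27 high, low and negative classes, 91 in all), and the lowest part weak responders (31, 30 and 30, also 91). The 93 cells between them are the middle part. The 182 strong and weak cells were drawn from 576 cells in the whole series.

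The sort took femur and tibia marrow cells that carried CD150, cKit and Sca1 and lacked CD48, a surface phenotype that enriches for long-term HSCs. The 6 groups of 96 cells were control or LPS marrow, each divided into p27 high, p27 low and p27 negative cells. The p27 protein holds cells back from entering the cycle, and the series title names it among markers of G0. The sources used here give neither strain, sex and number of animals nor the LPS dose and the time after it. Each group therefore counts as 1 sample. The contrast between strong and weak responders is fixed by the score, so its values are given as a description, with no test, and cells are not used as replicates. The 4 score genes are left out of every list, count and total below. Where 3 values stand together they follow the order p27 high, p27 low and p27 negative.

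LPS is a cell wall component of Gram-negative bacteria that is sensed by TLR4 with MD-2 and CD14. One signalling branch acts through MyD88 and NF-kB on cytokine genes, and another acts through TRIF and IRF3 on the gene for interferon beta. Secreted type I interferon binds IFNAR1 and IFNAR2, and the kinases JAK1 and TYK2 then activate STAT proteins, which join IRF9 in a complex called ISGF3. ISGF3 binds a DNA element known as the ISRE beside interferon-stimulated genes, whose products restrict viral RNA, present antigen and feed back on the pathway. HSCs carry interferon receptors, and type I interferon is known to raise Sca-1 and to bring dormant HSCs into cycle for a time.

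The scores of strong and weak responders do not overlap by construction, and their medians lay far apart. Lowest, median and highest scores of strong responders were 1064, 8627 and 31970.4 CPM in p27 high, 6736, 11721 and 32632 CPM in p27 low and 4285, 8639 and 38319 CPM in p27 negative cells. For weak responders they were 0, 50.5 and 103 CPM, 13.1, 80.6 and 495 CPM, and 9.31, 57.5 and 139 CPM. The lowest strong responders scored 1064, 6736 and 4285 CPM and the next cells below them 524, 6629 and 4168 CPM. At the other edge the highest weak responders scored 103, 495 and 139 CPM and the next cells above them 115, 518 and 162 CPM.

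**Figure D1:**
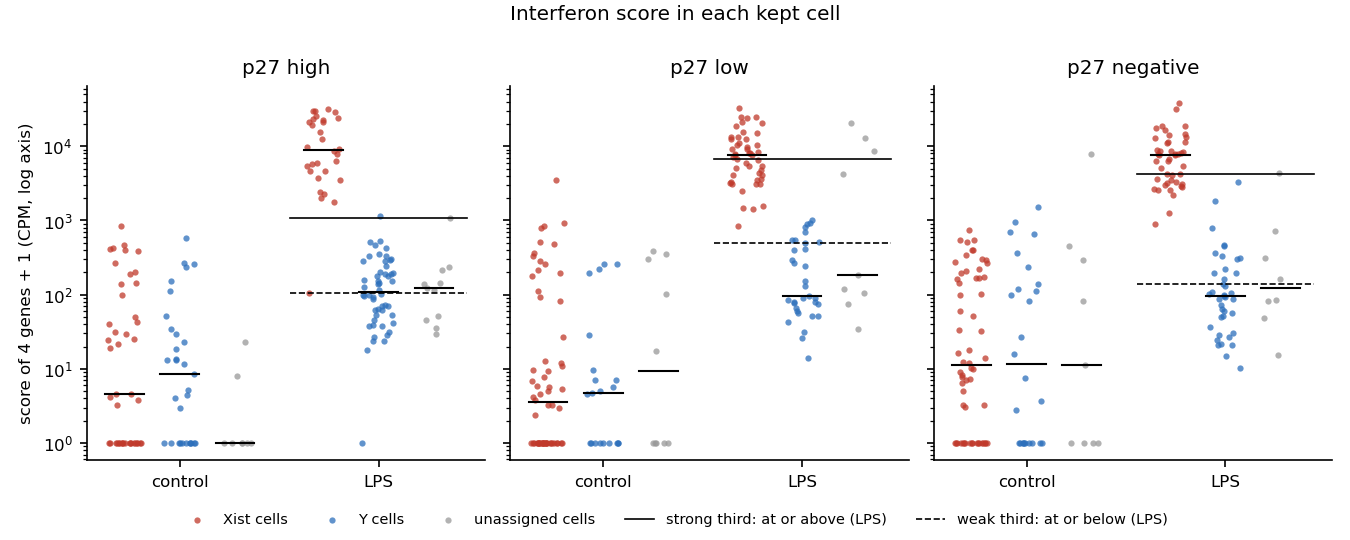
Score of each kept cell (summed CPM of Rsad2, Ifit1, Cmpk2 and Usp18, plus 1, log axis) for control and LPS cells of each p27 class, coloured by Xist or Y-linked reads; short black bars are medians, solid and dashed lines mark the lowest strong and the highest weak responder. LPS cells with Xist reads sit high (median 7682 CPM), LPS cells with Y-linked reads sit low (median 98.6 CPM), and control Xist and Y cells lie lower (medians 4.82 and 4.43 CPM, all 4 medians taken over the classes together), with single cells far above.

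The strong and weak responders also differed in which sex chromosomes their RNA came from, and every result below has to be read beside that. Xist is the non-coding RNA made from the inactive X chromosome of female cells, and Ddx3y, Eif2s3y, Kdm5d and Uty lie on the Y chromosome. A cell was called an Xist cell where Xist was at least 10 CPM and over 5 times the summed CPM of the 4 Y genes, a Y cell in the reverse case, and unassigned otherwise. These limits were chosen after the data were seen. Of the 91 strong responders 85 were Xist cells, 1 was a Y cell and 5 were unassigned. Of the 91 weak responders 1 was an Xist cell, 77 were Y cells and 13 were unassigned. The middle part held 37 Xist, 46 Y and 10 unassigned cells. Xist itself stood at 476, 353 and 574 CPM in strong and 2.83, 3.28 and 2.62 CPM in weak responders, and the 4 Y genes together at 11.7, 3.91 and 1.72 CPM against 287, 267 and 244 CPM.

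Counted the other way, 120 of 123 LPS Xist cells had a score of at least 1000 CPM (97.6%), against 4 of 124 LPS Y cells (3.23%). The unassigned LPS cells were mixed, with 6 of 28 at or above that score. The split was present in every class, at 29 of 30, 47 of 48 and 44 of 45 Xist cells and 1 of 52, 1 of 33 and 2 of 39 Y cells. It was not present in control marrow, where 1 of 167 Xist cells (0.60%) and 1 of 78 Y cells (1.28%) scored that high. Median scores were 7682 CPM in LPS Xist cells, 98.6 CPM in LPS Y cells, 4.82 CPM in control Xist cells and 4.43 CPM in control Y cells. A score of 0 was found in 1 of 124 LPS Y cells, in 64 of 167 control Xist cells and in 30 of 78 control Y cells. In LPS Y cells the summed levels of single score genes were 0.675 to 11.8% of those in LPS Xist cells, and Xist was at 0.427 to 1.01%. Whether reads passed between libraries, which would bear on low scores and on the ranking within Y cells, was not tested. The labels give neither sex nor animal, so the response and the sex, animal or handling of the Xist and Y cells cannot be told apart. Results are therefore also given within Xist cells and within Y cells.

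**Figure D2:**
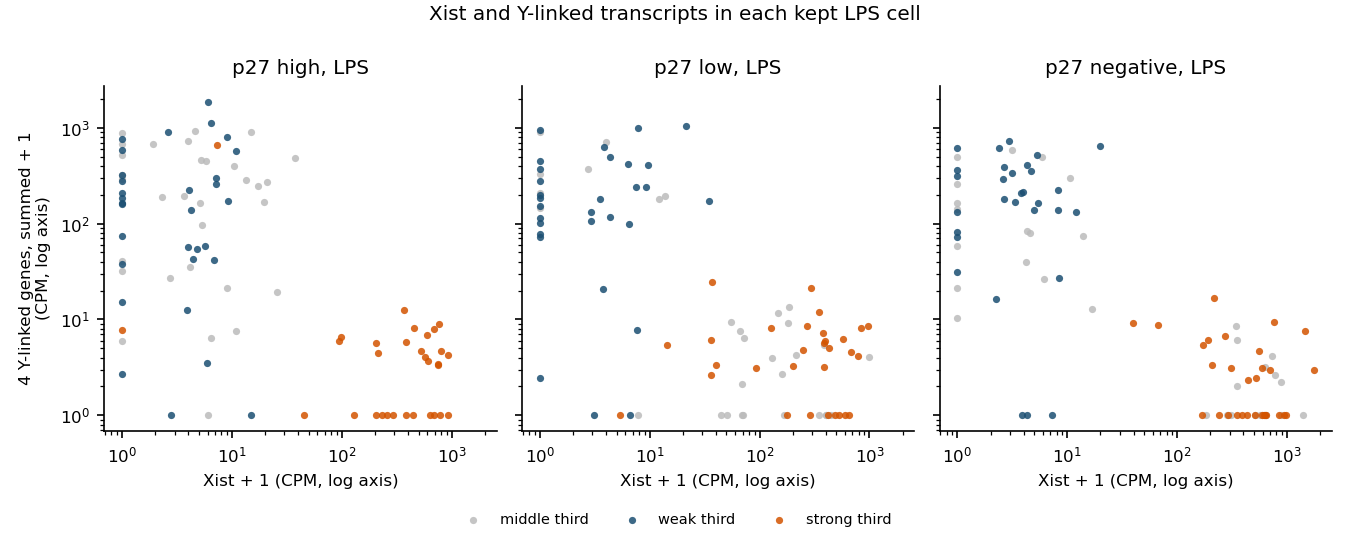
Summed CPM of Ddx3y, Eif2s3y, Kdm5d and Uty against Xist CPM, each plus 1, in each kept LPS cell of the 3 p27 classes (log axes), coloured by strong, middle or weak score. Strong responders gather at high Xist and low Y-linked reads (85 of 91 are Xist cells) and weak responders at the opposite corner (77 of 91 are Y cells).

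The kept LPS cells held 67389 to 1878063 gene reads (median 319381). Median reads per cell were 322580, 257186 and 394814 in strong and 327988, 297168 and 482694 in weak responders. After every cell was thinned to 50000 reads, the median number of genes was 3926, 3694 and 4774 in strong and 3967, 4006 and 5010 in weak responders. Mitochondrially encoded RNA took 5.33, 4.80 and 5.09% of gene reads in the median strong responder and 5.63, 5.30 and 5.05% in the median weak one. Spike-in reads, as a percent of gene reads, were 3.29, 3.80 and 2.05 against 4.62, 4.52 and 2.23, lower in strong responders of all 3 classes. Depth was varied only in alternative settings, whose values are given at the end. The part of RNA amount and spike-in share in the results was not tested.

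Which side held more genes depended on the scaling, with more genes lower than higher in strong responders under total reads and more higher than lower under TMM factors. Levels of a part are taken from reads summed over its cells, and log2 differences are strong minus weak after adding 1 CPM. Of 8633 genes with at least 10 CPM in the higher part in every class, 407 (4.71%) were at least 1 log2 unit higher in strong responders in all 3 classes and 679 (7.87%) were at least 1 log2 unit lower. In single classes the shares were 13.7%, 15.2% and 11.9% higher and 32.4%, 33.5% and 24.8% lower. Over all genes with at least 1 CPM the median difference was -0.38, -0.42 and -0.30, and lists should be read against it. TMM factors shifted strong against weak levels up by 0.40, 0.41 and 0.20 log2 (less for low genes, since 1 CPM is added after scaling), and the split turned to 533 higher and 433 lower (55.18% higher, against 37.48% with totals). Control cells ranked and divided by the same score, which the selection did not use, gave 64 higher (0.719%) and 61 lower (0.685%) of 8900 genes. Every weak control cell scored 0, as did some middle ones, and ties went by the cell number in the labels. Median reads were 152893, 182186 and 283641 in strong and 261172, 218016 and 413151 in weak control cells. Depth was varied for this control split only in alternative settings, whose values are given at the end.

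The 15 genes that led the higher set by their smallest difference over the classes were mostly chemokines, antiviral proteins and surface proteins of activated cells. They were Cxcl11, Ccl5, Oasl1, Cxcl10, Cd83, Gm4951, Tnfrsf9, Xist, Gm12185, Cx3cl1, Ifit3, Ifi204, Lad1, Mx1 and Acod1, out of 865 genes that met the naming rule. Cxcl10 encodes a ligand of the receptor CXCR3 and had the highest CPM of them in every class. In strong responders the lowest, median and highest cells held 217, 17139.9 and 36162 CPM of Cxcl10 in p27 high, 1633, 16300.4 and 54706 CPM in p27 low and 1162, 18969 and 41019.5 CPM in p27 negative cells. In weak responders they held 14.4, 71.8 and 232 CPM, 39.2, 80.9 and 821 CPM and 19, 57.8 and 153 CPM. The strong and weak cells overlapped slightly in p27 high and did not overlap in the other classes. Summed Cxcl10 with its exact Poisson 95% interval was 16009.8 (15938 to 16082), 15398 (15317 to 15479.6) and 16486 (16425 to 16546) CPM in strong and 78.6 (73.5 to 83.9), 110.4 (104 to 117) and 54.1 (50.6 to 57.8) CPM in weak responders, a difference of 7.65, 7.11 and 8.22 log2. Intervals of this kind, here and below, cover counting error only.

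Cxcl11, annotated in GENCODE as a polymorphic pseudogene in mouse, stood at 2919.9, 3332 and 2534 CPM in strong and 13.2, 17.2 and 10.8 CPM in weak responders. Ccl5, a chemokine for T cells and monocytes, stood at 6596, 7901 and 3617 CPM against 25.3, 51.6 and 20 CPM, with a much wider spread among strong cells (p27 negative: lowest, median and highest 6.03, 333 and 30621 CPM). Oasl1, an OAS-like protein that restrains translation of Irf7 RNA, stood at 1968, 1779 and 1249 CPM against 12.2, 8.99 and 4.40 CPM. Cxcl11 and Oasl1 were spread over most strong responders. After thinning, Cxcl11 was seen in 28 of 31, 28 of 30 and 28 of 30 strong cells against 14 of 31, 14 of 30 and 8 of 30 weak cells, and Oasl1 in 28 of 31, 30 of 30 and 29 of 30 against 10 of 31, 11 of 30 and 10 of 30. Cd83, a surface protein of activated antigen-presenting cells, was spread over fewer. Its summed level was 275, 305 and 213 CPM against 0.972, 0.740 and 0.733 CPM, and it was seen in 14 of 31, 11 of 30 and 10 of 30 strong cells against 0 of 31, 1 of 30 and 3 of 30 weak cells. Its median strong cell held 3.40, 0 and 1.62 CPM. Tnfrsf9, the receptor 4-1BB, was seen in 17 of 31, 18 of 30 and 9 of 30 strong cells against 2 of 31, 5 of 30 and 3 of 30 weak cells. Cx3cl1, the membrane-bound chemokine fractalkine, stood at 291, 204 and 184 CPM against 0.618, 1.06 and 1.28 CPM. Acod1, which makes itaconate, stood at 97.2, 574 and 115 CPM against 0.618, 1.16 and 0.671 CPM.

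**Figure D3:**
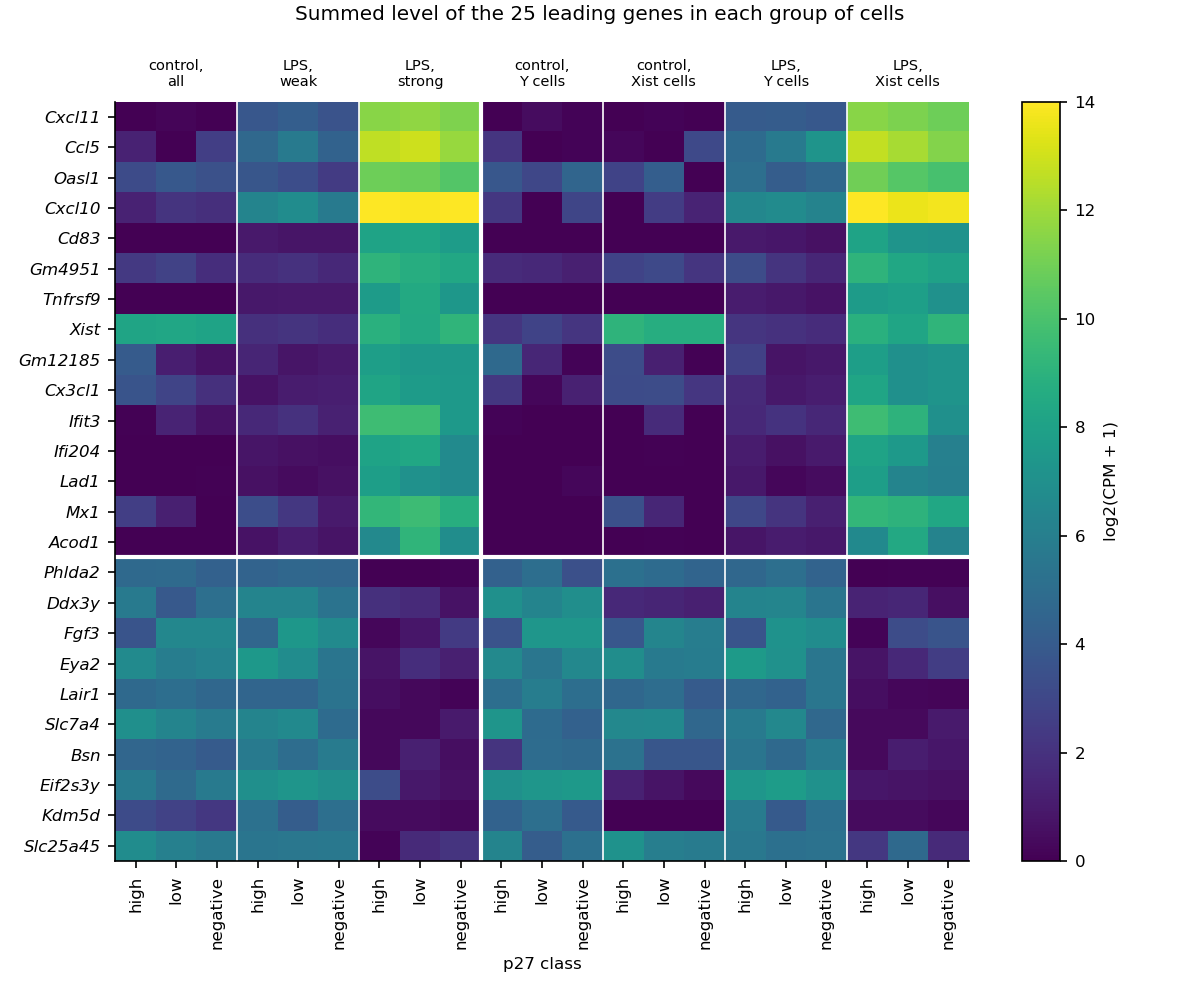
Levels, as log2(CPM + 1) of summed reads, of the 15 leading higher and 10 leading lower genes in control cells, weak and strong LPS responders, and in Y and Xist cells of control and LPS marrow, for each p27 class. Strong responders and LPS Xist cells share a pattern in which Cxcl10 is bright and Phlda2 dark, and weak responders and LPS Y cells resemble control cells for most rows.

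The interferon block was made of 13 gene families or groups with 118 genes in the table besides the score genes. Of the 98 with at least 10 CPM in the higher part of every class, here called measured, 86 were at least 1 log2 unit higher in strong responders in all classes, and none was lower, beside the 4.71% and 7.87% of all genes. The median difference over the block was 3.09, 3.60 and 3.19 log2, or 3.17, 3.61 and 3.44 where genes without a read in weak responders were set to a floor of 3 counts. Block genes took 5.91, 6.17 and 4.46% of gene reads in strong responders, 1.09, 0.746 and 0.543% in weak responders and 0.891, 0.721 and 0.544% in control cells. Lowest, median and highest strong cells held 11724, 53199 and 103099 CPM, 35561, 59506 and 92867 CPM and 27497, 45319 and 63720.3 CPM of block genes. In weak cells the values were 5604, 10434 and 16838 CPM, 3314, 7209.7 and 20237 CPM and 3827, 5418 and 7589.8 CPM. Thus 29 of 31, 30 of 30 and 30 of 30 strong cells lay above the highest weak cell.

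The families differed in size, and their counts stand beside the 4.71% of all genes that were higher. IFIT proteins bind viral RNA that lacks a host cap, and 4 of 4 measured IFIT genes were higher, with a median difference of 7.07, 6.40 and 4.70 log2 (7.07, 6.40 and 5.04 with the floor). Ifit3 stood at 796, 769 and 182 CPM against 2.12, 2.96 and 1.40 CPM. The Mx dynamin-like GTPases block viral replication, and Mx1 stood at 615, 768 and 436 CPM against 9.10, 3.91 and 1.04 CPM, Mx2 at 172, 321 and 241 CPM against 7.24, 0.740 and 1.16 CPM. The OAS enzymes make 2-5A, which switches on RNase L, and 7 of 8 genes of that list were higher (median 3.62, 4.16 and 4.85). The guanylate-binding proteins and immunity-related GTPases act on vacuoles that hold microbes. They were higher in 7 of 8 and 7 of 7 genes, with medians of 4.83, 5.23 and 4.0 and 3.78, 4.03 and 5.03, and the first with the floor was 5.23, 5.23 and 4.70. Gbp3 stood at 1972, 1953 and 1446 CPM against 28.9, 33.3 and 19.1 CPM, and Gbp5 at 601, 579 and 339 CPM against 9.19, 3.91 and 1.71 CPM. The smallest median among the block's families was that of the IFITM proteins and tetherin, membrane factors that hinder viral entry or release, with 2 of 4 genes higher and a median of 1.11, 1.74 and 1.68.

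The other families lay between these, again beside 4.71% of all genes higher. The DNA-sensing p200 genes were higher in 6 of 6 (median 5.38, 3.85 and 2.64, or 5.38, 5.38 and 3.63 with the floor) and the Schlafen genes in 4 of 4 (median 2.55, 5.0 and 3.24, or 2.87, 5.80 and 3.24 with the floor). Interferon-linked PARPs were higher in 7 of 7, TRIM ubiquitin ligases in 9 of 10 and nucleic acid sensors in 6 of 10. The 4 sensors that did not pass were Tmem173, Mavs, Aim2 and Tlr3. ISG15 conjugation genes were higher in 3 of 4, and the remaining interferon-stimulated genes in 22 of 24 (median 2.53, 3.30 and 3.01). Isg15, a ubiquitin-like protein that is attached to other proteins, separated strong from weak cells in p27 low and p27 negative. Its lowest, median and highest strong cells held 13.4, 225 and 442 CPM, 83, 239 and 772 CPM and 73.3, 199 and 729.8 CPM, and its weak cells 0, 1.68 and 45.3 CPM, 0, 0 and 23.5 CPM and 0, 1.34 and 7.60 CPM. The cells overlapped in p27 high only. Summed Isg15 was 236 (227 to 245), 315 (303 to 327) and 241 (234 to 248) CPM in strong and 4.86 (3.66 to 6.32), 2.64 (1.71 to 3.90) and 1.71 (1.14 to 2.47) CPM in weak responders. Members of the IFIT, OAS, GBP, p200, Schlafen, Serpina3 and Ly6 families have close copies, and reads may have been split or lost between copies in the authors' counting, so single values in them are uncertain.

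The windows from 250 bases before to 50 bases after RefSeq gene starts were searched for the core of the ISRE. It was taken as GAAA, any 2 bases and GAAA again, on both strands, with overlapping matches counted. Of the 86 higher block genes 69 had a window in the table, and 40 of these held the core (58%). The block was listed as interferon-stimulated genes, and its genes that were not higher were not counted apart. This share therefore cannot be tied to the difference between strong and weak responders. Of all 407 higher genes, block genes included, 313 had a window and 60 held it (19.2%). Among the 321 higher genes on no interferon list 244 had a window and 20 held it (8.20%). Counted per gene, the core was found in 8 of 536 lower genes with a window (1.49%) and in 273 of 6587 genes with at least 10 CPM (4.14%). Over all genes with a window it was found in 1079 of 27025 (3.99%), and over single windows in 1131 of 32851 (3.44%). None of the 14 higher genes of the NF-kB list with a window held it. Among the 15 leading genes 9 had a window and Cxcl10, Gm12185 and Ifit3 held the core. A match is a description of letters, not a binding site. Windows of 4 higher genes that hold the core are shown with that of Phlda2, the leading lower gene, which holds none. They are written 5′ to 3′ on the strand of the gene, from RefSeq on GRCm38.p6, with each core or its reverse complement in capitals. Where a gene has several windows, the first by position is shown.
Cxcl10, chr5:92348840-92349139, minus strand: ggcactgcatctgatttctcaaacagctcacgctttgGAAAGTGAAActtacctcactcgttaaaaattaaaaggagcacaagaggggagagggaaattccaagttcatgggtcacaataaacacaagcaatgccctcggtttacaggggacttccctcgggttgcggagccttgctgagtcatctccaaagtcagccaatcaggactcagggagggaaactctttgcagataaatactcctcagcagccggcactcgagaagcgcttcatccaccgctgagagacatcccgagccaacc
Isg15, chr4:156200769-156201068, minus strand: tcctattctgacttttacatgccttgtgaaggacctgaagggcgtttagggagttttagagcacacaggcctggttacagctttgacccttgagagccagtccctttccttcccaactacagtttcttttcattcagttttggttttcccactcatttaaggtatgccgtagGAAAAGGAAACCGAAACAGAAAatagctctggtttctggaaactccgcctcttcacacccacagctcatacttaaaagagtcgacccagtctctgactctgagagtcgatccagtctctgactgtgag
Ifit3, chr19:34583279-34583578, plus strand: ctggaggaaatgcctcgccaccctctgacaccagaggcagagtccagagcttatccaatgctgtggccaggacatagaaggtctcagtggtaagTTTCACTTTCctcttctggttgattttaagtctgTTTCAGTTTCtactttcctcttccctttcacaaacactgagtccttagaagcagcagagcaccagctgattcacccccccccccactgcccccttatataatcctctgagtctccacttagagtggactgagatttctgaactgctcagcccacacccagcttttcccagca
Gbp3, chr3:142559794-142560093, plus strand: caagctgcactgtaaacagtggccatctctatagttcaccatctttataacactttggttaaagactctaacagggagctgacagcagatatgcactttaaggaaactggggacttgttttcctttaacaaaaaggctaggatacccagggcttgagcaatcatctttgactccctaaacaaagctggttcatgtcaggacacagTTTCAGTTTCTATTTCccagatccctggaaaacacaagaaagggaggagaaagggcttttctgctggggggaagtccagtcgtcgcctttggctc
Phlda2, chr7:143502475-143502774, minus strand: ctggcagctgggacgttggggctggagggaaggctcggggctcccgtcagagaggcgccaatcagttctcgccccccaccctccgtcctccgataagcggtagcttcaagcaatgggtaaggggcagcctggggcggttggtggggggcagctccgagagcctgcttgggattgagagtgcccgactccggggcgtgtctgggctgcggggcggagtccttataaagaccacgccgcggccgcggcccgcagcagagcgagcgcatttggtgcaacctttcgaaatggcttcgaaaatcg
The core began 213 bases before the start of Cxcl10, 156 and 122 bases before Ifit3, and 45 and 39 bases before Gbp3. The Isg15 window held overlapping cores that began 78, 72 and 66 bases before the start.

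The signalling parts of the pathway moved unevenly. None of 21 interferon ligand genes was measured in all classes. The share of all genes that were higher in all classes was 4.71%. Of 5 measured receptor genes 1 was higher in all classes, Ifngr2, a chain of the interferon gamma receptor, at 157, 143 and 80.3 CPM against 8.39, 5.60 and 14.7 CPM. Its partner Ifngr1 did not pass the limit in every class, at 119.7, 223 and 79.4 CPM against 377, 326 and 160.1 CPM. Ifnar1 and Ifnar2, the type I receptor, differed by 1.04, 1.48 and -1.14 and 0.72, 0.09 and -0.42 log2, so their sign was not the same in every class. The STAT and JAK list had medians of 1.13, 0.06 and 0.79 log2, smaller than those of the interferon block. Stat2, a part of ISGF3, stood at 416, 372 and 344 CPM against 13.6, 66.9 and 8.61 CPM, and Irf9, another part of that complex, at 394, 384 and 303 CPM against 150.1, 153 and 60.2 CPM.

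Interferon regulatory factors were higher in 5 of 7 genes, with a median of 2.79, 1.50 and 2.86 log2 (3.28, 1.50 and 2.86 with the floor). Irf7, which amplifies type I interferon transcription, stood at 1198, 1105 and 844 CPM against 30.3, 18.1 and 12.6 CPM and in control cells at 17.3, 34.3 and 18.2 CPM. The others that passed were Irf1, Irf5, Irf8 and Irf9. Irf1, a factor shared by interferon and NF-kB signalling, stood at 2933, 2365 and 2163 CPM against 300.3, 117 and 135 CPM. Where 4.71% of all genes were higher, feedback inhibitors were higher in 2 of 11 genes besides Usp18, which is a score gene. They were Socs1 (72.8, 115 and 98.2 CPM against 17.2, 4.23 and 12.3 CPM) and Socs3 (196, 314 and 127 CPM against 80.4, 16.9 and 11.6 CPM), both of which restrain JAK kinases. Of all genes 4.71% were higher and 7.87% lower. Of 10 measured genes of the LPS receptor and adaptors none was higher (1 with TMM factors) and 1 was lower. That was Lbp, which hands LPS to CD14, at 22.1, 3.24 and 13 CPM against 148, 24.4 and 41.3 CPM. Tlr4, the receptor itself, was too low in p27 low cells to be counted, at 13, 0.224 and 4.64 CPM in strong and 51.8, 5.50 and 20.3 CPM in weak responders.

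Chemokines and NF-kB targets were higher in strong responders along with the interferon block. Of all genes 4.71% were higher in all classes. Measured genes, like all genes counted, needed 10 CPM in the higher part only, so genes low in weak responders entered through the strong ones. All 7 measured chemokines, Cxcl9, Cxcl10, Cxcl11, Cxcl16, Ccl3, Ccl4 and Ccl5, were higher in strong responders, with a median of 5.54, 6.46 and 5.74 log2 (5.54, 6.46 and 6.75 with the floor). The list took 2.64, 2.93 and 2.41% of gene reads in strong responders against 0.0147, 0.0194 and 0.0105% in weak ones, and 31 of 31, 30 of 30 and 30 of 30 strong cells lay above the highest weak cell. NF-kB subunits, inhibitors and targets were higher in 18 of 20 genes (median 2.85, 2.72 and 3.62), and here 28 of 31, 25 of 30 and 25 of 30 strong cells lay above the highest weak cell. Tnfaip3, which encodes the NF-kB inhibitor A20, stood at 146, 208 and 151 CPM against 0.795, 9.62 and 0.916 CPM. Of the acute-phase and Serpina3 list all 4 measured genes were higher, among them the protease inhibitor Serpina3f at 4317, 4273 and 3982 CPM against 148, 27.2 and 65.4 CPM. The other 3 were Serpina3g, Serpina3i and Serpina3n. Lcn2, a protein that binds iron carriers of bacteria, was concentrated in few cells, at 296, 347 and 4.69 CPM in strong responders with reads after thinning in 7 of 31, 4 of 30 and 2 of 30 cells.

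Il6 showed how uneven the inflammatory part was among strong responders. The cytokine stood at 621 (607 to 636), 166 (158 to 175) and 65.1 (61.4 to 69) CPM in strong and 0.883 (0.424 to 1.62), 0.951 (0.435 to 1.81) and 0.794 (0.423 to 1.36) CPM in weak responders, and no control cell had a read. Its median strong cell held 41.5, 2.89 and 0 CPM and its highest 3149, 2179 and 1109 CPM. After thinning it was seen in 16 of 31, 14 of 30 and 9 of 30 strong cells and 3 of 31, 1 of 30 and 0 of 30 weak cells, so it was carried by a part of the strong responders in each class. Without thinning the shares were 58.1, 60 and 46.7% of strong and 32.3, 23.3 and 33.3% of weak cells, so the gap between them depended on the depth. Its summed level in strong cells was highest in p27 high and lowest in p27 negative cells.

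Antigen presentation genes differed by smaller amounts. The shares of all genes past the limit in all classes were 4.71% higher and 7.87% lower. MHC class I and immunoproteasome genes were higher in 6 of 20 (10 with TMM factors), with a median of 0.86, 1.21 and 0.84 log2. As a list they took 2.46, 2.41 and 2.22% of reads against 1.37, 1.17 and 1.30%, and 8 of 31, 28 of 30 and 25 of 30 strong cells lay above the highest weak cell. Tap1, which carries peptides into the endoplasmic reticulum, stood at 1194, 1052 and 1121 CPM against 202, 196 and 268 CPM. Nlrc5, the transactivator of class I genes, stood at 147, 259.7 and 184 CPM against 50.3, 19.5 and 34.7 CPM. The class II list was split. Cd74, the invariant chain, was higher (2091, 557 and 248 CPM against 171, 15.1 and 15.2 CPM), while the peptide exchange genes H2-DMa (86.6, 77.4 and 67 CPM against 199, 261 and 188 CPM) and H2-DMb1 (25.4, 3.47 and 3.21 CPM against 57.3, 38 and 35.2 CPM) were lower. With TMM factors no class II gene was past the limit on the lower side in all classes. Checkpoint genes were higher in 2 of 4, Cd274 and Pdcd1lg2, both ligands of PD-1. Cd274, which encodes the checkpoint ligand PD-L1, stood at 343, 375 and 259.8 CPM against 82.4, 62.8 and 32.6 CPM.

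Of the genes of the sorting gate Ly6a was higher and Kit lower in strong responders. Both measured genes of the Ly6 list, Ly6a and Ly6e, were higher (median 1.88, 3.01 and 2.11 log2), beside 4.71% of all genes. Ly6a encodes Sca-1. Its lowest, median and highest strong cells held 284, 2033 and 7517 CPM, 63.6, 1555 and 7320.2 CPM and 3.32, 661 and 5927 CPM, and its weak cells 0, 321 and 2959 CPM, 0, 46.4 and 1523 CPM and 1.10, 61.2 and 319.9 CPM. Summed, it was 2538, 2614 and 855 CPM against 574, 126 and 91.6 CPM, a difference of 2.14, 4.37 and 3.21 log2, with overlapping cells in every class. Kit encodes the stem cell factor receptor used as cKit in the sort. Its lowest, median and highest strong cells held 0, 11.7 and 831 CPM, 0, 13.5 and 397 CPM and 0, 26.8 and 388 CPM, and its weak cells 0, 320.5 and 1944 CPM, 0, 480.4 and 1856 CPM and 79.6, 335 and 919.7 CPM. Summed Kit was 72.4 (67.7 to 77.5), 86 (80 to 92.3) and 72.5 (68.6 to 76.6) CPM in strong, 557 (544 to 571), 569.8 (555 to 585) and 394 (385 to 404) CPM in weak responders and 402, 542 and 337 CPM in control cells, so its summed level in strong responders lay below both, though single cells overlapped in every class. Slamf1, the gene of CD150, differed by 0.42, 1.64 and 0.82 log2. Cd48, against which the cells were sorted, stood at 0.169, 6.71 and 4.81 CPM in strong and 24, 20.6 and 6.71 CPM in weak responders.

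Long-term and dormant HSC genes were lower as a list. Of 27 measured genes 8 were at least 1 log2 unit lower in all classes (6 with TMM factors), among them Sult1a1, Gprasp2, Cdkn1c, Esam, Meis1 and Clec1a, and 1 was higher, the cytokine gene Ltb, beside 7.87% and 4.71% of all genes. The median was -1.45, -0.97 and -0.81 log2, or -1.05, -0.57 and -0.62 with TMM factors, below the median of all genes under totals. As a list they stood at 3140.3, 2704 and 2209.7 CPM in strong, 6907, 3997 and 3231 CPM in weak responders and 8315, 6223 and 4053 CPM in control cells. Hlf and Procr did not pass in every class. Hlf, a transcription factor of HSC maintenance, stood at 10.5, 18.9 and 6.47 CPM against 288, 38 and 127 CPM. Esam, an adhesion molecule of HSCs and endothelium, stood at 19.9, 5.82 and 52 CPM against 180.2, 212 and 136 CPM. Procr, the gene of EPCR, stood at 21.6, 12.6 and 16.1 CPM against 137, 44.3 and 28.7 CPM. Cdkn1c, which encodes the CDK inhibitor p57 of quiescent HSCs, stood at 13.4, 3.13 and 1.55 CPM against 40.7, 11.7 and 14.2 CPM.

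The 10 leading lower genes were Phlda2, Ddx3y, Fgf3, Eya2, Lair1, Slc7a4, Bsn, Eif2s3y, Kdm5d and Slc25a45, out of 2627 that met the naming rule, and 3 of them are Y-linked. Phlda2, an imprinted gene that restrains placental growth, had no read in strong responders of p27 high and p27 low cells, where weak responders held 21.3 and 24.5 CPM. Against a floor of 3 counts over the part it was at least 83.9-fold and 73.1-fold lower. In p27 negative cells the ratio of strong to weak was 0.0048 (exact 95% interval 0.000579 to 0.0174). Eya2, a transcription cofactor with phosphatase activity, stood at 0.676, 2.57 and 1.32 CPM against 176, 111 and 43.1 CPM. Fgf3, a fibroblast growth factor, stood at 0.169, 0.783 and 4.12 CPM against 24, 170.0 and 105 CPM, and Lair1, an inhibitory collagen receptor, at 0.423, 0.224 and 0.114 CPM against 22.4, 23 and 39.3 CPM. These were sparse genes also in the cells that held them, since Phlda2 was seen after thinning in 9 of 31, 7 of 30 and 11 of 30 weak cells and Eya2 in 15 of 31, 12 of 30 and 13 of 30. Their control levels were 27, 27.5 and 19.6 CPM for Phlda2 and 102, 60.6 and 73.2 CPM for Eya2, closer to those of weak than of strong responders.

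Of the cell cycle lists few genes passed the limit in all classes, and only 6 G2/M genes were abundant enough in every class to be counted. Of 28 measured S phase genes 1 was lower in all classes, Rfc2, and none higher, beside 7.87% and 4.71% of all genes, with a median of -0.62, -1.13 and -0.26 log2. Of 6 measured G2/M genes 1 was lower, Cdc20, which activates the anaphase-promoting complex, and the median was -0.94, 0.06 and -0.98. The mean of these medians, -0.62, became -0.10 with deeper and shallower cells of each class divided separately. The list was far more abundant in p27 negative cells than in the other classes. In p27 negative cells all 30 G2/M genes were lower in strong responders. Of all genes with at least 1 CPM in that class 37.9% were higher, and their median was -0.30 log2. The G2/M list stood there at 4759.7 CPM in strong, 9225 CPM in weak responders and 7748 CPM in control cells. Mki67, the proliferation antigen, was seen after thinning in 29 of 30 strong and 29 of 30 weak cells of that class. Cdkn1b, the gene of p27, differed by 0.31, -0.47 and -0.06 log2, and Cdkn1a, the gene of p21, stood at 69.4, 140.2 and 216 CPM against 18, 5.29 and 16 CPM. The list of D cyclins and CDK inhibitors had a median of -0.29, -0.13 and -0.19, which turned to 0.11, 0.28 and 0.01 with TMM factors. Of its 9 measured genes Cdkn1a was higher and Cdkn1c lower.

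Among metabolic and housekeeping lists glycolysis had 4 of 20 genes lower in all classes (3 with TMM factors), Pfkm, Aldoc, Tpi1 and Pdk1, beside 7.87% of all genes, with a median of -0.87, -0.57 and -0.68 log2. Pfkm, a phosphofructokinase, stood at 19.8, 2.12 and 9.33 CPM against 126, 42.5 and 100.4 CPM, and Pdk1, which holds pyruvate back from the mitochondrion, at 35.1, 5.59 and 2.80 CPM against 138, 123 and 34.6 CPM. No cytosolic ribosomal protein gene of 46 and no oxidative phosphorylation gene of 41 was past the limit in all classes, where 4.71% of all genes were higher and 7.87% lower. Their medians were -0.09, -0.19 and 0.06 and -0.15, -0.43 and -0.31, and with TMM factors 0.31, 0.21 and 0.26 and 0.25, -0.01 and -0.11, so the ribosomal sign turned in p27 high and low and the oxidative phosphorylation sign in p27 high cells. Of 9 heat shock and chaperone genes 1 was higher, Hspa5, the chaperone BiP, and the list's median of -0.07, -0.38 and -0.12 turned to 0.33, 0.04 and 0.09 with TMM factors. Of 8 inflammatory caspase and necroptosis genes 3 were higher, Casp1, Casp4 and Mlkl. Of 14 immediate early genes 2 were higher, Klf6 and Atf3, and 2 lower (1 with TMM factors), Fos and Fosb. Fos stood at 94.8, 104 and 153 CPM against 1720.4, 975 and 535 CPM, and Atf3, a stress factor, at 254, 367 and 62.9 CPM against 2.12, 30.6 and 0.610 CPM.

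**Figure D4:**
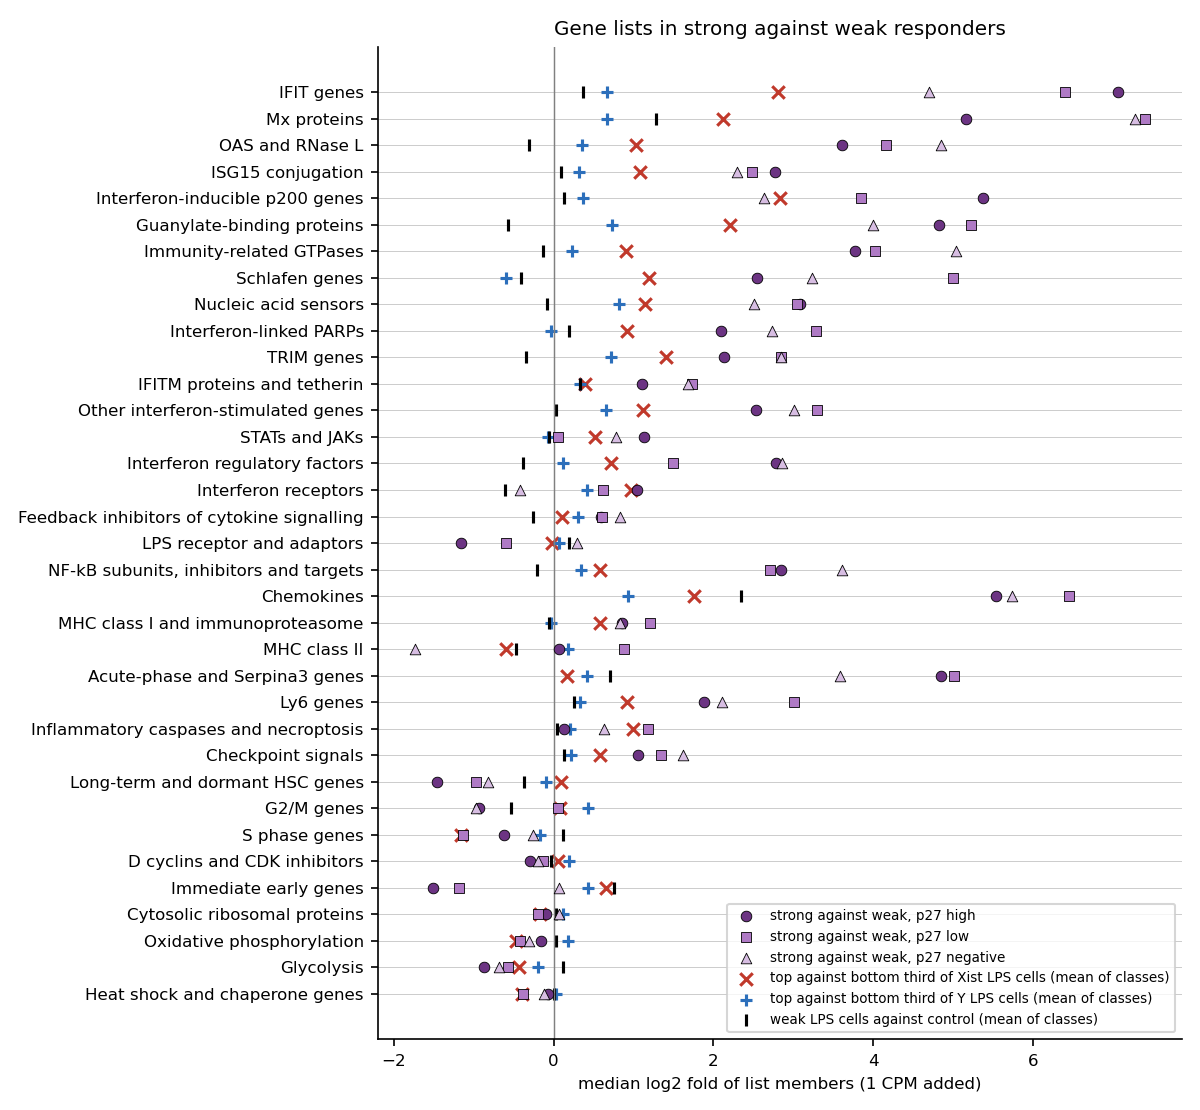
Median log2 difference of gene lists by p27 class for strong against weak responders. The lists of other cell types, the interferon ligands and the interferon block as a whole are not drawn. The same list is compared within LPS Xist cells (crosses), within LPS Y cells (plus signs) and for weak responders against control cells (bars). Each of these is a mean over the classes. The IFIT genes (4.70 to 7.07) and chemokines (5.54 to 6.46) stand far to the right for strong against weak, and in both lists the other comparisons lie nearer 0.

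Ranking the score within Xist cells alone kept part of the interferon difference. Top and bottom parts of the LPS Xist cells held 10, 16 and 15 cells each, and 181 of 7444 genes (2.43%) were higher and 245 (3.29%) lower in all classes. The interferon block was higher in 35 of 94 genes with a median of 1.41, 1.30 and 1.12 log2, and chemokines in 3 of 7 (1.02, 2.26 and 2.0). NF-kB genes had a median of 0.44, 0.79 and 0.51 and MHC class I genes of 0.60, 0.68 and 0.47, against -0.34, -0.26 and -0.13 for all genes. The long-term HSC list had medians of 0.46, -0.23 and 0.06, and Kit differed by 0.21, -1.03 and -0.69. Ly6a differed by 1.24, 2.04 and 0.67. Within LPS Y cells, in parts of 17, 11 and 13 cells, 80 of 8232 genes (0.972%) were higher and 126 (1.53%) lower. The block median there was 0.20, 0.54 and 0.77, with 2 of 67 genes higher and 1 lower.

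Setting LPS cells against control cells of the same kind does not use the score, though the LPS Xist cells are largely the strong responders. Each side is again 1 sample per class, so these are values with no test. In Xist cells 348 of 8922 genes (3.9%) were higher after LPS and 775 (8.69%) lower in all classes. In Y cells the counts were 49 of 8873 (0.552%) and 67 (0.755%). The interferon block was higher in 81 of 95 genes of Xist cells (median 3.25, 3.06 and 2.61, or 3.35, 3.06 and 2.72 with the floor) and in 1 of 69 of Y cells (median 0.46, 0.32 and 0.43). NF-kB genes were higher in 16 of 20 and 0 of 14, and MHC class I genes in 5 of 20 and 0 of 18. Long-term HSC genes were lower in 12 of 28 of Xist cells and 0 of 27 of Y cells. Kit differed by -2.99, -1.92 and -2.03 in Xist cells and 0.41, 0.03 and 0.11 in Y cells, Ly6a by 3.14, 3.95 and 4.49 and 0.60, 0.22 and 0.32, and Eya2 by -6.11, -4.15 and -3.32 and 1.05, 1.56 and -1.07. The difference between the LPS effects of Xist and Y cells was not tested.

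Per cell, the median of interferon block genes was 53706, 43327 and 38117 CPM in LPS Xist cells and 10620.1, 6712 and 5459 CPM in LPS Y cells. In control marrow it was 8618, 6312 and 5567 CPM in Xist and 8458, 5992 and 5114 CPM in Y cells, so control cells of both kinds were close together. Xist against Y cells of control marrow gave 2 of 72 block genes higher, with 62 of 8993 of all genes higher (0.689%) and 39 lower (0.434%). NF-kB list medians were 9160.2, 6159 and 5836 CPM in LPS Xist and 992, 1130.4 and 637 CPM in LPS Y cells. For the long-term HSC list they were 2763, 2477 and 2244 CPM and 5983, 3997 and 3099.9 CPM, against 8152, 5055 and 3845 CPM and 7593, 5649 and 4242 CPM in control Xist and Y cells.

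**Figure D5:**
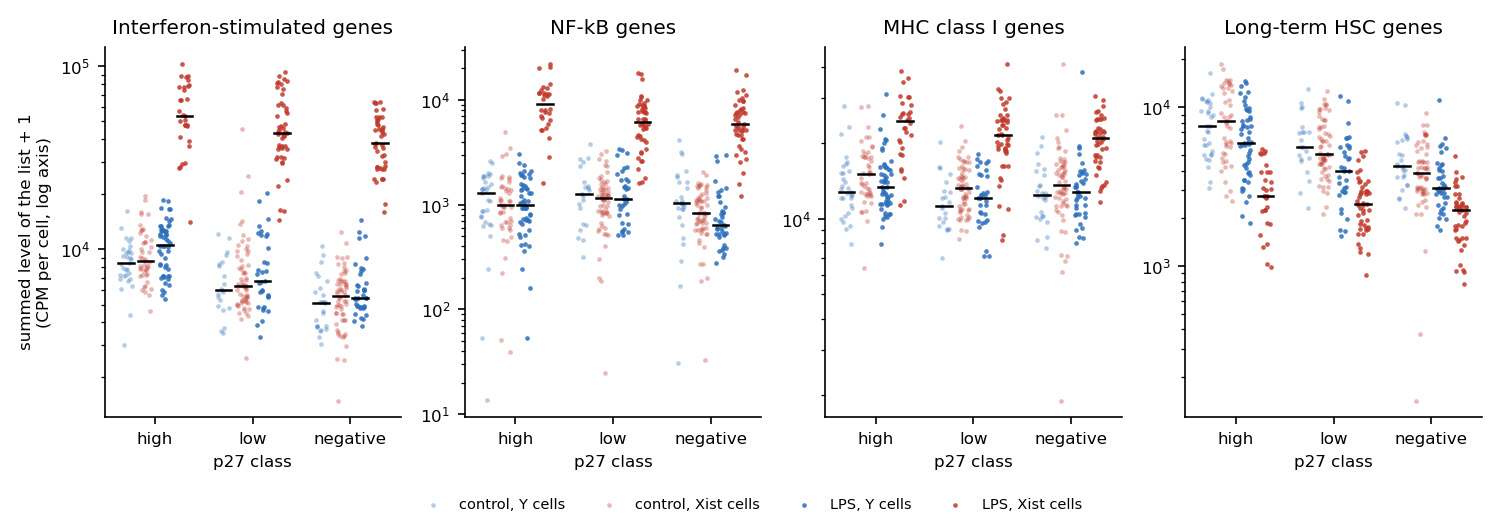
Summed CPM per cell (log axis) of the interferon, NF-kB, MHC class I and long-term HSC lists for control Y, control Xist, LPS Y and LPS Xist cells of each p27 class, with medians as bars. LPS Xist cells stand apart for the interferon list (medians 53706, 43327 and 38117 CPM), while the medians of the other kinds lie between 5114 and 10620.1 CPM.

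The middle part showed the same split. In p27 high cells it held no Xist cell, and its interferon block differed from weak responders by -0.09 log2. In p27 low and negative cells, where it held 21 and 16 Xist cells, the block differed by 2.05 and 1.97 log2.

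Few genes were past the limit between weak responders and control cells. All kept control cells of a class, Xist and Y together, served as the reference. Of 9104 genes 19 (0.209%) were higher and 82 (0.901%) lower in weak responders in all classes. The interferon block had a median of 0.09, -0.12 and -0.03 log2 and none of its 73 measured genes was higher in all classes. Chemokines were higher in 3 of 4 genes, Cxcl10, Cxcl11 and Ccl5. Cxcl10 stood at 78.6, 110.4 and 54.1 CPM in weak responders and 1.52, 3.35 and 2.77 CPM in control cells, and after thinning it was seen in 29 of 31, 30 of 30 and 29 of 30 weak cells against 1 of 84, 1 of 93 and 2 of 95 control cells. In weak responders Cxcl10 was at 0.491, 0.717 and 0.328% of its level in strong responders. Xist in the same cells was at 0.594, 0.929 and 0.457% of its level in strong responders, and the 4 Y genes in LPS Xist cells were at 0.798%, 1.01% and 0.548% of their level in LPS Y cells. Summed levels of some other lists also differed from control. Acute-phase and Serpina3 genes stood at 2175, 2154 and 2285 CPM in weak responders and 1836, 1504 and 1067 CPM in control cells. Immediate early genes stood at 7027, 3729 and 1767 CPM against 3905, 2529 and 1609 CPM, and the sums of long-term HSC genes, given above, lay below control in every class. Whether reads passed between libraries of the LPS table was not tested.

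Markers of other marrow and vessel cells were checked because the gate could admit them. Of 9 megakaryocyte genes 1 was higher, Selp, and 1 lower, Gp5, beside 4.71% and 7.87% of all genes. The megakaryocyte list as a whole stood at 1431, 1650.4 and 1774 CPM summed in strong against 853, 1693 and 1833 CPM in weak responders. The erythroid list stood at 2516, 5246 and 5209 CPM against 2051, 3151 and 2809.6 CPM with none of 3 genes past the limit. The neutrophil and granule list stood at 49.3, 45 and 25.5 CPM against 487, 300.0 and 253 CPM. Its measured gene was Prtn3, a granule protease also made by immature progenitors, at 25.9, 32.1 and 18.3 CPM against 447, 267 and 233 CPM. The monocyte list stood at 473, 374 and 309 CPM against 536, 582 and 432 CPM and the dendritic list at 208, 239 and 209.8 CPM against 168, 72 and 102 CPM. Of the dendritic list Irf8, which is also an interferon regulatory factor, was higher and Flt3 lower. B cell genes stood at 7.61, 4.70 and 15.1 CPM against 78.3, 85.7 and 58.2 CPM, T and NK cell genes at 37.8, 239.5 and 99.3 CPM against 56.7, 391 and 190.3 CPM, and endothelial and stromal genes at 146, 108 and 76.5 CPM against 71.3, 166 and 76.5 CPM. Sums and medians of lists did not always point the same way. Monocyte genes had medians of 1.18, 1.67 and 0.04 log2 and T and NK cell genes of 0.62, 2.19 and 1.0, opposite to their sums in every class. The megakaryocyte median (0.05, 0.28 and 0.07) differed in sign from its sum in p27 low and negative, the erythroid one (0.29, -0.69 and 0.68) in p27 low and the dendritic one (-1.13, 1.10 and 1.49) in p27 high. Among the last 3 lists Gzmb was higher and Cd79b and Nkg7 were lower. The part of these markers in the interferon results was not tested.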

How the data were processed

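Full-length single-cell libraries of 288 control and 288 LPS cells were used as whole-number gene counts deposited by the authors, 1 column per cell. Reads were aligned with GSNAP to mm10 and counted with HTSeq 0.6.0, per the submitters' processing notes. The sources used here name neither the annotation nor the strand setting of the counting. Of the reads of LPS cells 36.3% were gene counts, 1.17% spike-ins, 7.03% without a feature, 4.85% ambiguous and 50.6% not aligned, and only gene counts entered the totals. GENCODE release M21 gave symbols to 45143 of 46078 gene IDs.

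Cells with at least 50000 gene reads and 1000 genes were kept, and no doublets were removed and no clustering was done. Levels were reads summed over the cells of a part scaled to 1000000 gene reads (CPM), and differences were taken after adding 1 CPM. A gene was called where the difference was at least 1 log2 unit the same way in all 3 classes with at least 10 CPM in the higher part of each. List medians used members with at least 1 CPM in either part. Poisson intervals of summed reads were exact at 95% and cover counting error only. Shares of cells with a gene were taken after thinning each cell to 50000 reads. Binomial intervals over cells served only to judge whether such a share moved under another thinning. A group without a read was set to a floor of 3 counts over the group for bounds. TMM factors came from edgeR 4.0.16 in R 4.3.3, and the rest was computed in Python 3.11.15 with numpy 2.4.6, pandas 2.3.3, scipy 1.17.1 and matplotlib 3.10.9. The calculations were tested on simulated data. Promoter windows came from RefSeq on GRCm38.p6.

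The cells, score genes and lists were chosen with earlier results of these data known. Leading genes had at least 10 CPM and a read in at least 20% of cells of the higher part in every class and the same direction in summed and mean CPM, and were ranked by their smallest difference over the classes (first 15 higher, first 10 lower). For each list, as many as 4 members of widest mean difference were named too, and the receptors, factors and gate genes of the pathway as well. Other genes named in a short count, and the limits for Xist and Y cells, were chosen after their values were seen. Alternatives changed the scaling, cells, score, split, pseudocount and filter.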

Additional observations from a re-analysis of the deposited data

Results flagged for a closer look

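Several lists changed sign between p27 classes in strong against weak responders. Given here are the 3 lists with at least 5 members at 1 CPM or more in every class whose median lay at least 0.5 log2 above 0 in 1 class and at least 0.5 below it in another. These differences between classes were not tested. The median log2 difference of MHC class II genes was 0.068 in p27 high, 0.88 in p27 low and -1.74 in p27 negative cells. For the dendritic markers it was -1.13, 1.10 and 1.49 in the same order. For the erythroid markers it was 0.29, -0.69 and 0.68.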

How the results depend on the processing

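No paired analysis was possible because the numbers in the labels only name cells, each group is 1 sample and no test was made. In all 11 results were recomputed under 21 settings listed beforehand (16 for the 2 shares of reads, which have no pseudocount, filter or TMM setting) and 2 added after seeing the data, which kept Xist cells only or Y cells only. List values here are means over the p27 classes. Across the 21 settings genes higher ranged from 317 to 577 and genes lower from 360 to 1006, and the medians of the 5 lists recomputed for strong against weak responders (interferon block, NF-kB, MHC class I, long-term HSC and G2/M) kept their sign. With TMM factors 433 genes were lower, and the medians were 3.60 for the interferon block and 1.31 for MHC class I, against 3.29 and 0.97 with totals. With the cells divided into 2 parts in place of 3, 360 genes were lower, the interferon, NF-kB and MHC class I medians were 2.62, 2.13 and 0.76, block genes took 4.50% of strong reads, and weak against control was 0.28. Weak against control was -0.02 in the main setting, -0.14 with 4 parts and -0.22 without the top cell of each gene, where the block median was 3.56. Adding 0.1 or 5 CPM gave block medians of 3.63 and 2.90. The stricter filter on low values left 386 genes lower. With deeper and shallower cells of each class divided separately, 404 genes were higher and 611 lower. The interferon, NF-kB and MHC class I medians were then 3.31, 3.06 and 0.92, against 3.29, 3.06 and 0.97 in the main setting. Those of long-term HSC and G2/M genes were -1.07 and -0.10, against -1.08 and -0.62. The block median between the ends of the control score, 0.28, became -0.014 in cells with at least 200000 reads and 2000 genes, 0.18 without Ifit1 in the score, 0.16 with deeper and shallower cells divided separately, 0.15 without the top cell of each gene, 0.071 with no filter and 0.19 with the stricter one. Shares of cells with a gene were compared 84 times with those at another depth of thinning or none, and 32 comparisons lay beyond the share's binomial interval. A rise from 96.7% to 100%, as for Cxcl10 in weak p27 negative cells, counted among them.

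Within Xist cells 181 genes were higher and 245 lower. The medians were 1.28 for the interferon block, 0.58 for NF-kB, 0.58 for MHC class I, 0.10 for long-term HSC genes (against -1.08 over all cells) and 0.087 for G2/M genes (against -0.62). Block genes took 6.66% and 3.01% of reads in the top and bottom parts, and the bottom part stood 2.04 above control Xist cells. Within Y cells 80 genes were higher and 126 lower, the medians were 0.51, 0.35, -0.028, -0.090 and 0.43 in the same order, block genes took 0.894% of the top part's reads, and the bottom part stood 0.11 above control Y cells. The cause of these changes was not tested. With 1 sample per group the intervals hold counting error only, and a gene of a few reads per cell is not resolved in single cells at this depth.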
